A study of Mus musculus with 12 samples.

Results

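Glutamate receptor and postsynaptic scaffold genes were read out of RNA-seq libraries of mouse brain cortex. The set held 34 genes, chosen by gene symbol from the 35275 genes of the deposited table, and all 34 passed the filter on low counts that left 16673 genes for testing. They are 4 subunits of AMPA receptors (Gria1 to Gria4), 3 auxiliary subunits of AMPA receptors (Cacng2, Cacng3, Cacng8), 7 subunits of NMDA receptors (Grin1, Grin2a to Grin2d, Grin3a, Grin3b), 5 subunits of kainate receptors (Grik1 to Grik5), the delta receptor Grid1, 6 metabotropic receptors (Grm2 to Grm5, Grm7, Grm8), 6 scaffold proteins (Dlg4, Grip1, Homer2, Shank1 to Shank3) and 2 adhesion proteins (Nlgn1, Nlgn3). The 12 libraries came from mice aged 8 months that were labelled female, 3 libraries for each of 4 genotypes. APP/PS1/Sirt3-/- mice carried transgenes for APP and for presenilin 1 (PS1) together with the Sirt3 deletion, APP/PS1 mice carried the transgenes alone, Sirt3-/- mice carried the deletion alone, and WT mice carried neither. The deletion was global, and the study's methods list both Sirt3-/- and wild-type mice on a 129 Sv and a C57BL/6 background without saying which were sequenced, while APP/PS1 mice are listed on C57BL/6. The methods and labels do not name the promoter that drove the transgenes.

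Glutamate released at an excitatory synapse opens AMPA, kainate and NMDA receptors, which are ion channels built of subunits, and activates metabotropic receptors, which signal through G proteins. Beneath the postsynaptic membrane Dlg4 (PSD-95) binds NMDA receptors and, through auxiliary subunits such as Cacng2 (stargazin), AMPA receptors, while Shank proteins link this layer to Homer proteins, metabotropic receptors and the actin cytoskeleton. Nlgn1 and Nlgn3, neuroligins, reach across the cleft to presynaptic neurexins.

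The libraries held 15251720 to 18644376 counted reads each. Several went against their labels. Sirt3 was 28.6, 0.211 and 27.7 CPM (read counts divided by library size, with TMM scaling) in replicates 1, 2 and 4 of the libraries labelled APP/PS1/Sirt3-/-, against 60.8, 63.6 and 64.5 CPM in WT, and the libraries labelled Sirt3-/- held 0.186, 0.467 and 0.443 CPM, so replicates 1 and 4 lay far above the other libraries labelled with the deletion. App was 3614, 3794 and 1623 CPM in the libraries labelled APP/PS1, against 1828, 1786 and 1755 CPM in WT, so that replicate 4 lay with WT. Replicate 4 of every group, 4 libraries in all, held Y-linked reads although every library was labelled female. Tissue markers also differed between groups. The summed level of 10 cortical excitatory neuron markers was 1482 to 1995 CPM in APP/PS1/Sirt3-/-, 1773 to 1970.0 CPM in APP/PS1 and 1208 to 2374 CPM in Sirt3-/-, against 2384 to 2756 CPM in WT. The 10 striatal markers measured summed to 302 to 1710.2 CPM, 466 to 1182 CPM and 1576 to 2897 CPM in the same 3 groups, against 304 to 654 CPM in WT, and the 9 thalamic markers to 121 to 423 CPM, 257 to 361 CPM and 82.7 to 194 CPM, against 92.9 to 106 CPM in WT. The choroid plexus sum ranged from 13.5 to 1720.2 CPM over the 12 libraries. In bulk tissue, fewer cells of a type and less RNA per cell cannot be told apart. Groups below are named by their labels.

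Levels of different genes were compared per length, in the deposited FPKM values, which divide by gene length and depth. The deposited lengths departed unevenly from the exonic bases of GENCODE vM21. They were 3457 against 13251 bases for Dlg4, 7605 against 10514 for Shank1, 4820 against 17933 for Grin2a and 23640 against 24842 for Grin2b. The order below and the subunit shares therefore rest on these lengths, and the SDs do not cover that uncertainty. By CPM, Shank1 (1412) stood above Dlg4 (1050) in WT. In WT cortex Dlg4 was the highest of the 34 genes at 298 ± 18.5 FPKM, followed by Shank1 at 182 ± 20.0 FPKM and by Grin1, the obligatory subunit of NMDA receptors, at 96.9 ± 4.58 FPKM (SD, n = 3 each). Grik5, a kainate receptor subunit, came next at 93.7 ± 13.6 FPKM and could not be ordered against Grin1 beyond their spread. Gria2, the subunit that keeps AMPA receptors from passing calcium, stood at 81.6 ± 1.85 FPKM, above Gria1 at 61.9 ± 9.11 FPKM, Gria3 at 40.6 ± 0.610 FPKM and Gria4 at 16.0 ± 0.187 FPKM (SD, n = 3 each). Among subunits that bind glutamate in NMDA receptors, Grin2b was 24.3 ± 4.95 FPKM and Grin2c 22.8 ± 1.18 FPKM, and Grin2a was 5.04 ± 0.696 FPKM (SD, n = 3 each). The lowest were Grm8 at 2.34 ± 0.00672 FPKM and Grin3b at 0.115 ± 0.0491 FPKM (SD, n = 3 each), and Grin3b rested on 19 reads in the 3 WT libraries together. Of the 33 pairs of neighbours in this order, 11 were separated by more than the sum of their SDs and 22 were not.

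**Figure D1:**
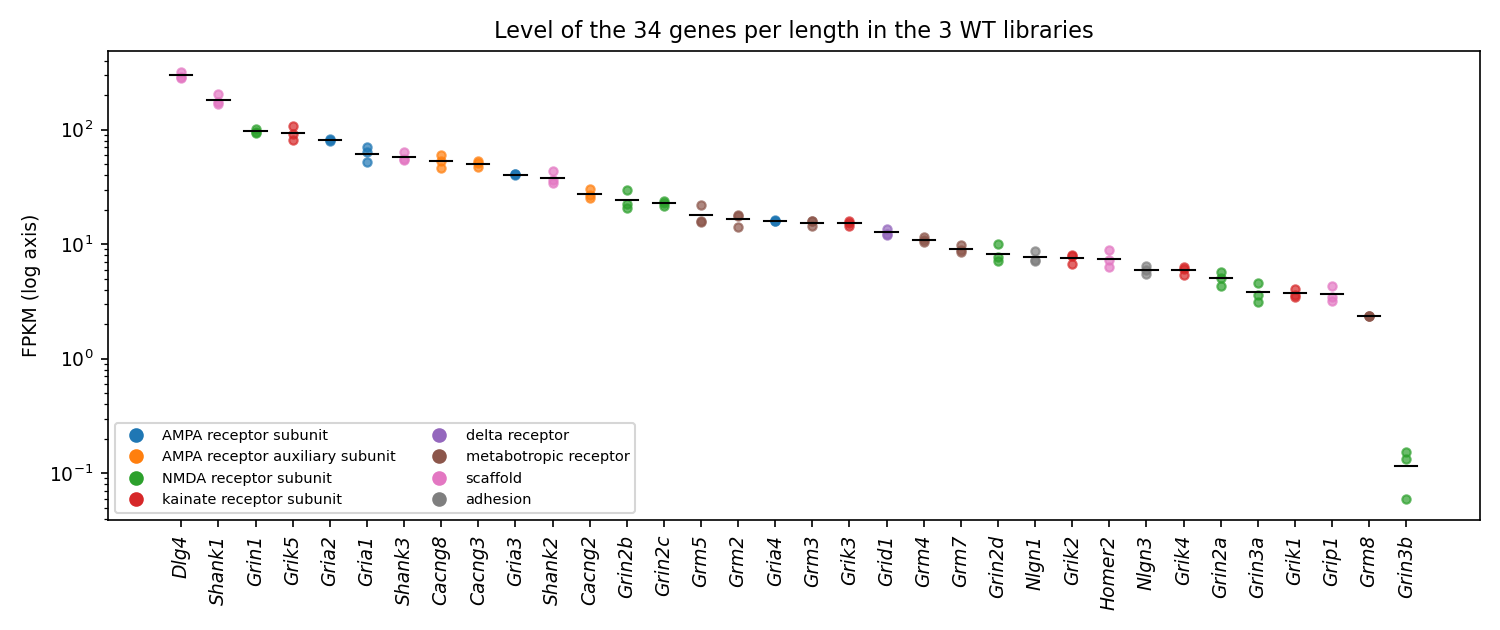
Level of each of the 34 genes in WT cortex, in FPKM on a log axis, ordered by mean and coloured by role. Points are the 3 WT libraries and bars their mean. Dlg4 at 298 FPKM and Shank1 at 182 FPKM lead, and Grin3b at 0.115 FPKM is the lowest.

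Across the genotypes, 3 of the 34 genes had all 9 libraries of the other groups below all 3 WT libraries, namely the scaffold gene Shank1, the NMDA receptor subunit Grin1 and the metabotropic receptor Grm2, and 1 gene, Grin3b, had all 9 above. Over all genes tested, 2.76% lay below in this way and 2.69% above. Grin3b passed the filter on low counts only through the groups other than WT. Its separation from WT, here and below, was favoured by that filter and is no evidence of a change. None of the 34 passed the test (adjusted p under 0.05, edgeR's quasi-likelihood test with Benjamini-Hochberg adjustment over all 16673 genes) in any of the 6 comparisons made. For APP/PS1/Sirt3-/- against WT, 0 of 34 passed where 1.13% of all genes did, and 12 had an unadjusted p under 0.05 (35.3%, against 20.1% of all genes), 4 higher and 8 lower. For APP/PS1 against WT, 0 of 34 passed where 0% of all genes did, and 12 had an unadjusted p under 0.05 (35.3%, against 17% of all genes), 2 higher and 10 lower. For Sirt3-/- against WT, 0 of 34 passed where 0.294% of all genes did, and 9 had an unadjusted p under 0.05 (26.5%, against 13.5% of all genes), 5 higher and 4 lower. These 3 comparisons share the WT libraries, and since the labels number the libraries without naming animals, p-values measure the spread between these libraries. The median log2 fold change of the 34 genes was -0.02, -0.09 and -0.03 in these 3 comparisons, beside 0.01, 0.01 and 0.00 for all genes tested.

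The number of calls differed between tools and between fits on different sets of libraries, where the filter, the scaling and the spread were estimated anew. DESeq2 on the 12 libraries called 5 of the 34 in APP/PS1/Sirt3-/- against WT (Grin3a and Grin3b higher, Grin1, Grm2 and Shank1 lower, where it called 6.31% of all genes), 1 in APP/PS1 against WT (Shank2, lower, 3.19% of all genes) and 4 in Sirt3-/- against WT (Grik2, Grin3b and Grm4 higher, Shank1 lower, 2.6% of all genes). Fits on only the 2 groups compared gave the most calls for APP/PS1. There edgeR called 7 of the 34 (Cacng3, Gria3, Grin1, Grm3, Shank1, Shank2 and Shank3, all lower), where it called 6.81% of all genes, and DESeq2 called 11, where it called 8.03%. In such fits edgeR called 3 of the 34 in APP/PS1/Sirt3-/- (Grin3a higher, Grin1 and Grm2 lower, 4.67% of all genes) and 1 in Sirt3-/- (Grm4, higher, 0.707%), and DESeq2 called 5 (7.06% of all genes) and 3 (2.36%). With Sirt3-/- replicate 2 left out of the 12-library fit, edgeR called 6 of the 34 in APP/PS1/Sirt3-/- against WT (6.91% of all genes) and 3 in APP/PS1 against WT (3.44%), and with APP/PS1/Sirt3-/- replicate 4 left out it called 5 (4.77%) and 1 (1.52%). Without Sirt3-/- replicate 1 it called 1 in APP/PS1/Sirt3-/- against WT (Grin3a, 2.84% of all genes), and without APP/PS1/Sirt3-/- replicate 2 or replicate 4 it called 1 in Sirt3-/- against WT (Grm4, 0.67% and 0.683%).

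**Figure D2:**
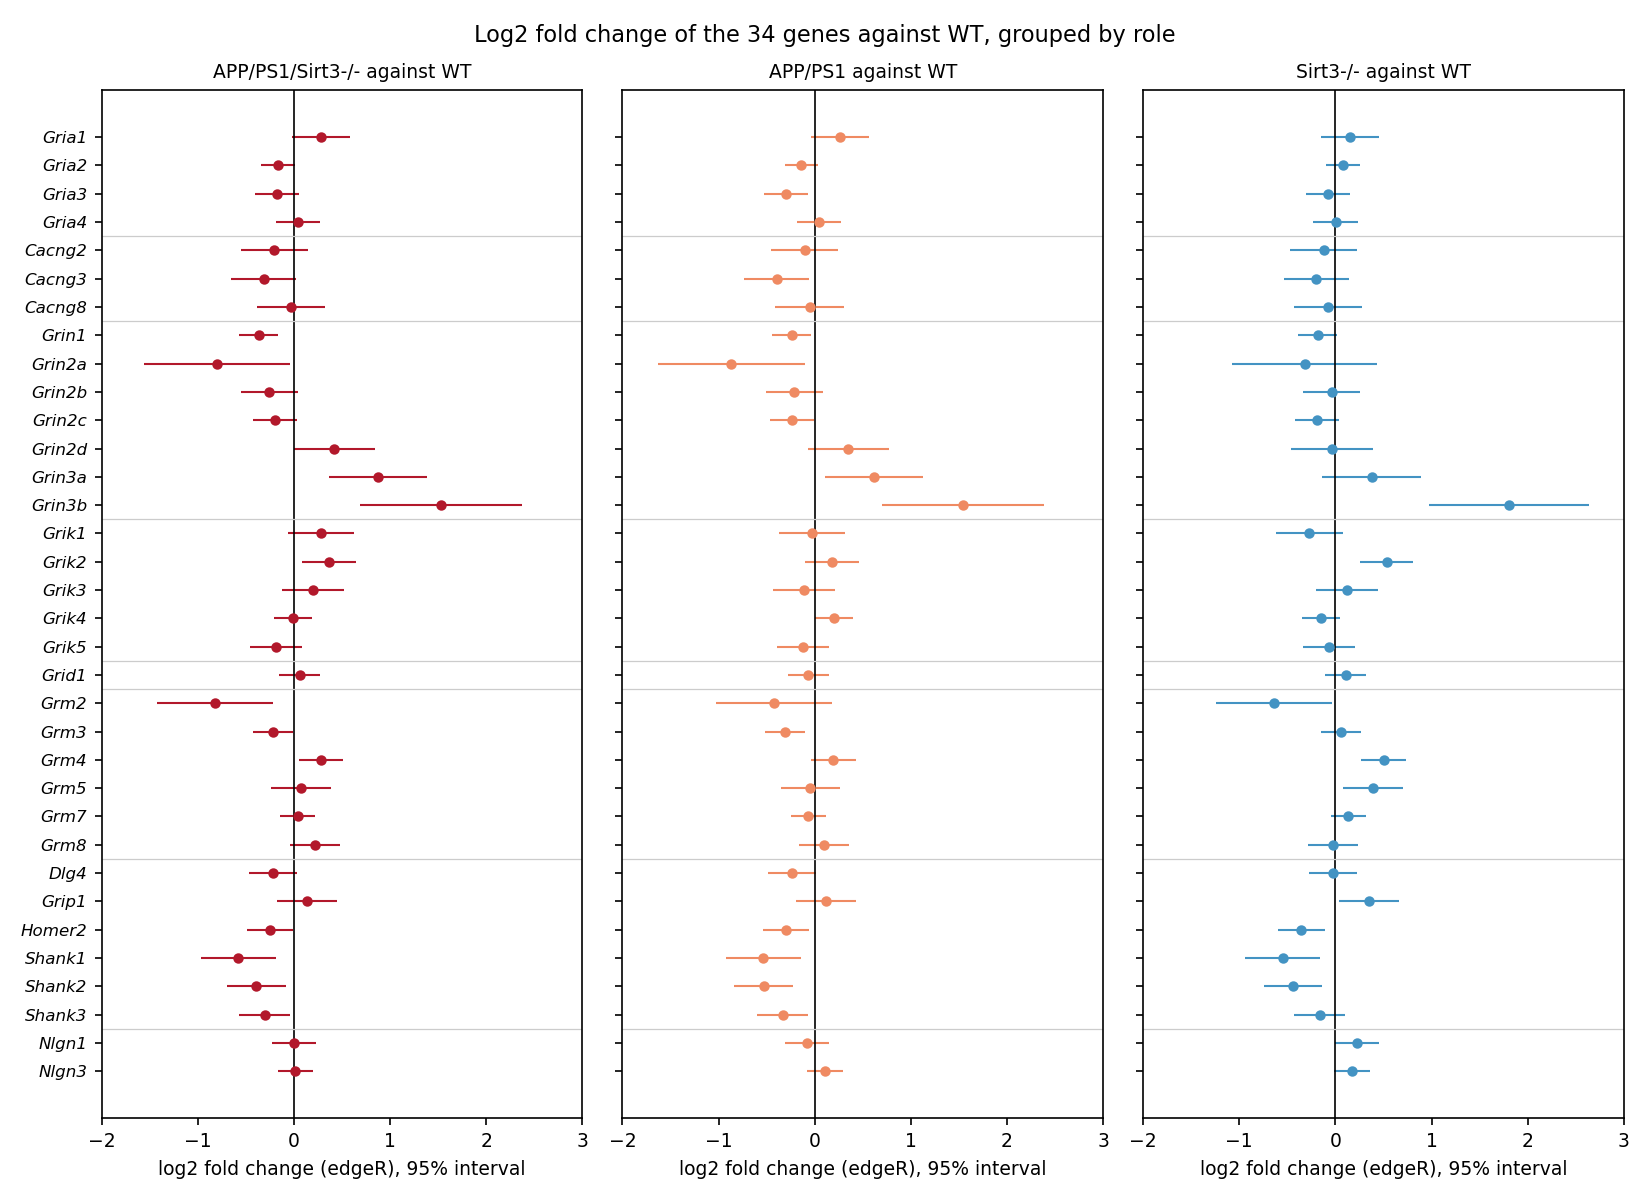
Log2 fold change of each of the 34 genes against WT, grouped by role from AMPA receptor subunits at the top to adhesion proteins at the bottom, with 1 panel for each genotype. Points are estimates from the edgeR fit of 12 libraries and bars their 95% intervals. Shank1, Shank2, Grin1, Grin2a and Grm2 lie left of 0 in all 3 panels, and Grin3b lies farthest to the right, at 1.53, 1.55 and 1.81. Grin3b passed the filter on low counts only through the groups other than WT.

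Without overlap with WT, 5 of the 34 genes lay above and 8 below in APP/PS1/Sirt3-/- (13% and 12.5% of all genes tested), 4 above and 12 below in APP/PS1 (13.3% and 14.6%) and 3 above and 5 below in Sirt3-/- (10.3% and 8.49%). The genes above were Grin3b, Grin3a, Grm4, Grm8 and Grik2 in APP/PS1/Sirt3-/-, Grin3b, Grin3a, Gria1 and Gria4 in APP/PS1, and Grin3b, Grm4 and Grik2 in Sirt3-/-. Those below were Grin1, Grin2a, Shank1, Grm2, Grm3, Gria2, Gria3 and Cacng2 in APP/PS1/Sirt3-/-, the scaffold genes Shank1, Shank2, Shank3 and Dlg4 with Grin1, Grin2a, Grin2c, Grm2, Grm3, Gria2, Gria3 and Cacng3 in APP/PS1, and Grin1, Grin2c, Grm2, Shank1 and Shank2 in Sirt3-/-.

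Among the AMPA receptor subunits, Gria1 had 372, 401 and 505 CPM in APP/PS1/Sirt3-/-, 421, 437 and 406 CPM in APP/PS1 and 346, 458 and 361 CPM in Sirt3-/-, against 398, 358 and 295 CPM in WT. The 3 APP/PS1 libraries lay above WT, and the libraries of the other groups overlapped WT. The log2 fold changes against WT were 0.28 (SE 0.14, adjusted p = 0.279) for APP/PS1/Sirt3-/-, 0.26 (SE 0.14, adjusted p = 0.344) for APP/PS1 and 0.15 (SE 0.14, adjusted p = 0.688) for Sirt3-/-. Gria2 had 479, 485 and 558 CPM in APP/PS1/Sirt3-/-, 518, 518 and 516 CPM in APP/PS1 and 665, 561 and 580.4 CPM in Sirt3-/-, against 558, 581 and 569 CPM in WT. Both groups labelled with the transgenes lay below WT, in APP/PS1/Sirt3-/- with 558.0 CPM in its highest library against 558.2 CPM in the lowest WT library, and Sirt3-/- overlapped WT. The log2 fold changes against WT were -0.17 (SE 0.08, adjusted p = 0.271) for APP/PS1/Sirt3-/-, -0.14 (SE 0.08, adjusted p = 0.396) for APP/PS1 and 0.08 (SE 0.08, adjusted p = 0.713) for Sirt3-/-. Gria3, an X-linked subunit, ranged from 166 to 238 CPM and lay below WT in every library of both groups labelled with the transgenes, with log2 fold changes of -0.17 (SE 0.11) in APP/PS1/Sirt3-/-, -0.30 (SE 0.11) in APP/PS1 and -0.07 (SE 0.11) in Sirt3-/-. Gria4 ranged from 74.2 to 107 CPM and lay above WT in APP/PS1, with log2 fold changes of 0.04 (SE 0.11) in APP/PS1/Sirt3-/-, 0.04 (SE 0.11) in APP/PS1 and 0.00 (SE 0.11) in Sirt3-/-.

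Gria2 as a share of the summed FPKM of Gria1 to Gria4 was 37.1, 35.7 and 36.0% in APP/PS1/Sirt3-/-, 37.8, 36.9 and 37.7% in APP/PS1 and 43.5, 38.8 and 41.0% in Sirt3-/-, against 38.6, 41.1 and 42.8% in WT. All 6 libraries labelled with the transgenes lay below the 3 WT libraries, and Sirt3-/- overlapped WT. The means were 36.3 ± 0.749%, 37.4 ± 0.488% and 41.1 ± 2.37% in these 3 groups, against 40.8 ± 2.10% in WT (SD, n = 3 each). The exact two-sided permutation p was 0.1 for APP/PS1/Sirt3-/-, 0.1 for APP/PS1 and 0.8 for Sirt3-/- against WT (n = 3 each), where 0.1 is the smallest value 3 libraries against 3 can give, and 0.2, 0.2 and 0.9 after adjustment over the 8 tests of shares. The share differed by -1.15 percentage points between APP/PS1/Sirt3-/- and APP/PS1 (exact p = 0.2, adjusted 0.32). With each library left out in turn the difference from WT ran from -5.65 to -3.57 percentage points in APP/PS1/Sirt3-/-, from -4.51 to -2.43 in APP/PS1 and from -0.902 to 1.46 in Sirt3-/-, where its sign was not fixed.

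**Figure D3:**
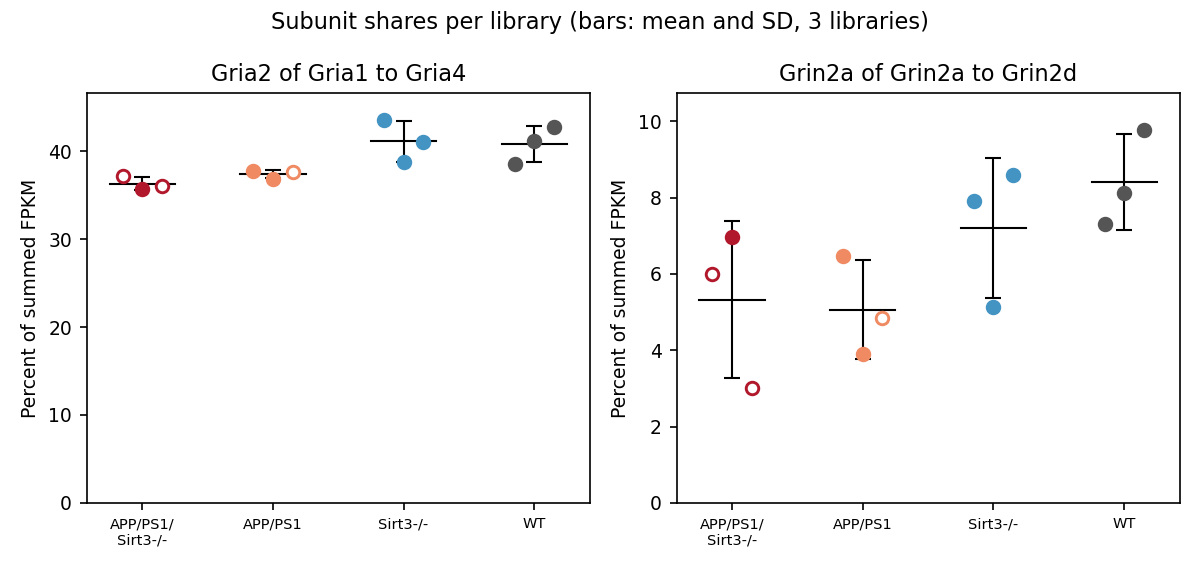
Share of Gria2 in the summed FPKM of Gria1 to Gria4 (left) and of Grin2a in that of Grin2a to Grin2d (right), in percent, for each library by genotype. Bars are the mean and SD of 3 libraries, and open points are the 3 libraries whose Sirt3 or App reads go against their label. In both panels every APP/PS1/Sirt3-/- and APP/PS1 library lies below every WT library.

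The auxiliary subunits Cacng2, Cacng3 and Cacng8 carry AMPA receptors to the membrane and set how they gate. Cacng3 had 108, 98.7 and 138 CPM in APP/PS1/Sirt3-/-, 115, 107 and 103 CPM in APP/PS1 and 144, 93.4 and 136 CPM in Sirt3-/-, against 151, 134 and 144 CPM in WT, and its APP/PS1 libraries lay below WT. Its log2 fold changes against WT were -0.31 (SE 0.15) in APP/PS1/Sirt3-/-, -0.40 (SE 0.15) in APP/PS1 and -0.20 (SE 0.15) in Sirt3-/-. Cacng2 ranged from 100.3 to 176 CPM and lay below WT in APP/PS1/Sirt3-/-, by -0.21 (SE 0.16) on the log2 scale, and Cacng8 ranged from 84.1 to 129.7 CPM with every group overlapping WT. Summed over the 3 genes the level was 119.6 ± 16.8 FPKM in APP/PS1/Sirt3-/-, 119 ± 5.36 FPKM in APP/PS1 and 121 ± 10.2 FPKM in Sirt3-/-, against 131 ± 6.14 FPKM in WT (SD, n = 3 each).

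Grin1 (ENSMUSG00000026959, chromosome 2 from 25291181 to 25319187 on the - strand of GRCm38) encodes the subunit present in every NMDA receptor. It had 315, 306 and 361 CPM in APP/PS1/Sirt3-/-, 349.5, 378 and 345 CPM in APP/PS1 and 395, 320.1 and 402 CPM in Sirt3-/-, against 446, 406 and 415 CPM in WT. Every library outside WT lay below the lowest WT library, and the 2 lowest were in APP/PS1/Sirt3-/-. The log2 fold changes against WT were -0.37 (SE 0.10, adjusted p = 0.0691) for APP/PS1/Sirt3-/-, -0.24 (SE 0.09, adjusted p = 0.227) for APP/PS1 and -0.18 (SE 0.09, adjusted p = 0.433) for Sirt3-/-. Of the exonic bases of Grin1, 13.5% are shared with an antisense gene, Grin1os, and the sources do not say whether reads were counted by strand. Promoters of 2 of the 3 genes that lay below WT in all 9 libraries are shown here, running from 250 bases before to 50 bases after the RefSeq start (GRCm38.p6), 5′ to 3′ on the gene's strand, with the GC box GGGCGG, a binding motif of Sp factors, in capitals.
Grin1 promoter, chr2:25319138-25319437, minus strand: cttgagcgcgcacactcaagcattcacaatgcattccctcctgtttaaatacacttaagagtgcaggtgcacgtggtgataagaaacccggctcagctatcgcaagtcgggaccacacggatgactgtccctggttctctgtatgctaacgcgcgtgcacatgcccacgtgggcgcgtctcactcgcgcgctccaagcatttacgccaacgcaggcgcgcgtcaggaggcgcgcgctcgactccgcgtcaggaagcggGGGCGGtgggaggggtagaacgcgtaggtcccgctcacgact
Grm2 promoter, chr9:106656060-106656359, minus strand: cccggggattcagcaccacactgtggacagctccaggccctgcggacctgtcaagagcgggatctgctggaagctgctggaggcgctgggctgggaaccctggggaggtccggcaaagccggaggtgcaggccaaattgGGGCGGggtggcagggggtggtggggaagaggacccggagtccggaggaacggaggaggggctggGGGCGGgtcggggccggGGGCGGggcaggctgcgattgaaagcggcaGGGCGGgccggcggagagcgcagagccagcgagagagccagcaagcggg
Grin1's promoter held 1 GC box and Grm2's 4, with both strands searched. Of the 34 genes, 22 matched an entry in the promoter table, with 31 promoters between them, and 14 of these held a GC box, as did 35.7% of all 32851 promoters of this length. The core of the cyclic AMP response element, TGACG, was in 5 of the 31, Grin1's among them, and in 20.8% of all.

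Grin2a and Grin2b encode the main glutamate-binding NMDA receptor subunits of the adult forebrain. Grin2a had 16.2, 18.4 and 7.93 CPM in APP/PS1/Sirt3-/-, 18.5, 9.52 and 12.6 CPM in APP/PS1 and 21.8, 13.3 and 24.6 CPM in Sirt3-/-, against 24.8, 21.3 and 28.2 CPM in WT. Both groups labelled with the transgenes lay below WT, with the lowest value in APP/PS1/Sirt3-/- replicate 4, and Sirt3-/- overlapped WT. The log2 fold changes against WT were -0.80 (SE 0.34, adjusted p = 0.226) for APP/PS1/Sirt3-/-, -0.87 (SE 0.34, adjusted p = 0.245) for APP/PS1 and -0.32 (SE 0.34, adjusted p = 0.738) for Sirt3-/-. Without APP/PS1/Sirt3-/- replicate 4 the value for that group was -0.52. Grin2b had 479.7, 532 and 457 CPM in APP/PS1/Sirt3-/-, 555, 468 and 493 CPM in APP/PS1 and 606, 485 and 619 CPM in Sirt3-/-, against 723, 494 and 538 CPM in WT. All groups overlapped WT, whose replicate 1 was the highest of the 12 libraries. Its log2 fold changes against WT were -0.26 (SE 0.14, adjusted p = 0.317) for APP/PS1/Sirt3-/-, -0.21 (SE 0.14, adjusted p = 0.450) for APP/PS1 and -0.04 (SE 0.14, adjusted p = 0.937) for Sirt3-/-. The share of Grin2a in the summed FPKM of Grin2a to Grin2d was 5.99, 6.97 and 3.02% in APP/PS1/Sirt3-/-, 6.46, 3.90 and 4.84% in APP/PS1 and 7.90, 5.13 and 8.60% in Sirt3-/-, against 7.31, 8.12 and 9.79% in WT. Again the groups labelled with the transgenes did not reach the WT range and Sirt3-/- overlapped it, with exact two-sided permutation p of 0.1, 0.1 and 0.5 against WT (n = 3 each) and 0.2, 0.2 and 0.667 after adjustment. APP/PS1/Sirt3-/- and APP/PS1 differed by 0.261 percentage points (exact p = 0.9, adjusted 0.9). In APP/PS1/Sirt3-/- the share differed from WT by -3.08 percentage points with all libraries and by -1.93 without replicate 4 of that group, and its difference from APP/PS1 ran from -0.560 to 1.41 with each library left out.

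Grin3a and Grin3b encode subunits that bind glycine and lower the calcium permeability of NMDA receptors. Grin3a had 51.5, 62.6 and 45.2 CPM in APP/PS1/Sirt3-/-, 50.8, 44.5 and 37.7 CPM in APP/PS1 and 26.6, 50.03 and 36.2 CPM in Sirt3-/-, against 35.5, 24.1 and 27.3 CPM in WT. Both groups labelled with the transgenes lay above WT, APP/PS1/Sirt3-/- replicate 2 was the highest library, and Sirt3-/- overlapped WT. Fitted log2 fold changes against WT were 0.87 (SE 0.23, adjusted p = 0.0827) for APP/PS1/Sirt3-/-, 0.61 (SE 0.23, adjusted p = 0.222) for APP/PS1 and 0.38 (SE 0.23, adjusted p = 0.516) for Sirt3-/-. Grin3b was close to the limit of detection, with 17, 21 and 23 reads in APP/PS1/Sirt3-/-, 26, 18 and 16 reads in APP/PS1 and 16, 24 and 28 reads in Sirt3-/-, against 9, 3 and 7 reads in WT. It passed the filter on low counts only through the groups other than WT, which favours a rise over WT. With a filter of 1 CPM in all libraries it dropped out. All 9 libraries lay above WT in CPM, and the log2 fold changes against WT were 1.53 (SE 0.39, adjusted p = 0.0680) for APP/PS1/Sirt3-/-, 1.55 (SE 0.39, adjusted p = 0.105) for APP/PS1 and 1.81 (SE 0.39, adjusted p = 0.0717) for Sirt3-/-. The 95% interval for Sirt3-/- ran from 0.98 to 2.64. Of the exonic bases of Grin3b, 32.1% are shared with Tmem259 on the opposite strand, which held 121 to 158 CPM over the 12 libraries, so the reads counted for Grin3b may belong to either gene. Grin2c ranged from 83.0 to 119.7 CPM and lay below WT in APP/PS1 and in Sirt3-/-, with log2 fold changes of -0.20 (SE 0.11) in APP/PS1/Sirt3-/-, -0.24 (SE 0.11) in APP/PS1 and -0.19 (SE 0.11) in Sirt3-/-. Grin2d ranged from 31.4 to 66.4 CPM and overlapped WT in every group, with log2 fold changes of 0.42 (SE 0.19) in APP/PS1/Sirt3-/-, 0.35 (SE 0.19) in APP/PS1 and -0.04 (SE 0.19) in Sirt3-/-, and 9.66% of its exonic bases are shared with another gene.

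Among the kainate receptor subunits, Grik2 had 48.8, 43.3 and 51.7 CPM in APP/PS1/Sirt3-/-, 47.9, 40.1 and 38.4 CPM in APP/PS1 and 50.8, 64.6 and 46.0 CPM in Sirt3-/-, against 39.1, 33.1 and 39.5 CPM in WT. APP/PS1/Sirt3-/- and Sirt3-/- lay above WT, Sirt3-/- replicate 2 was the highest library, and APP/PS1 overlapped WT. Fitted log2 fold changes against WT were 0.36 (SE 0.13, adjusted p = 0.141) for APP/PS1/Sirt3-/-, 0.18 (SE 0.13, adjusted p = 0.497) for APP/PS1 and 0.53 (SE 0.13, adjusted p = 0.0992) for Sirt3-/-. Grik1 had 12.8, 15.6 and 11.7 CPM in APP/PS1/Sirt3-/-, 9.90, 10.5 and 11.9 CPM in APP/PS1 and 7.26, 11.1 and 8.93 CPM in Sirt3-/-, against 12.1, 10.6 and 10.2 CPM in WT. Every group overlapped WT, while the 3 APP/PS1/Sirt3-/- libraries lay above the 3 Sirt3-/- libraries. The log2 fold change of Grik1 in APP/PS1/Sirt3-/- against Sirt3-/- was 0.55 (SE 0.16, adjusted p = 0.263), and against WT the values were 0.28 (SE 0.16) in APP/PS1/Sirt3-/-, -0.03 (SE 0.16) in APP/PS1 and -0.27 (SE 0.16) in Sirt3-/-. Grik3 ranged from 125 to 212 CPM, Grik4 from 30.7 to 45.3 CPM and Grik5 from 268 to 425 CPM, and in none of these 3 did any group separate from WT. Grid1, a delta receptor that binds cerebellins in the cleft, ranged from 70.4 to 92.1 CPM with all groups overlapping WT.

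Among the metabotropic receptors, Grm2 (ENSMUSG00000023192, chromosome 9 from 106643095 to 106656082 on the - strand), a receptor coupled to inhibition of adenylyl cyclase whose promoter is shown above, had 41.2, 48.7 and 45.8 CPM in APP/PS1/Sirt3-/-, 50.8, 64.3 and 64.1 CPM in APP/PS1 and 62.0, 27.6 and 65.2 CPM in Sirt3-/-, against 87.1, 67.9 and 85.0 CPM in WT. All 9 libraries outside WT lay below the lowest WT library, Sirt3-/- replicate 2 was the lowest of all, and every APP/PS1/Sirt3-/- library lay below every APP/PS1 library. Fitted log2 fold changes against WT were -0.82 (SE 0.27, adjusted p = 0.136) for APP/PS1/Sirt3-/-, -0.42 (SE 0.27, adjusted p = 0.450) for APP/PS1 and -0.64 (SE 0.27, adjusted p = 0.348) for Sirt3-/-, which is 0.565, 0.746 and 0.644 times the WT level. Without Sirt3-/- replicate 2 the value for Sirt3-/- was -0.33. Of its exonic bases, 9.60% are shared with another gene. Grm3, of the same class, had 46.9, 43.9 and 52.3 CPM in APP/PS1/Sirt3-/-, 47.7, 43.0 and 44.1 CPM in APP/PS1 and 66.9, 53.5 and 52.9 CPM in Sirt3-/-, against 52.5, 56.8 and 57.5 CPM in WT. Both groups labelled with the transgenes lay below WT, with 52.3 CPM in the highest APP/PS1/Sirt3-/- library against 52.5 CPM in the lowest WT library, and Sirt3-/- replicate 1 was the highest of all. Fitted log2 fold changes against WT were -0.22 (SE 0.10, adjusted p = 0.219) for APP/PS1/Sirt3-/-, -0.31 (SE 0.10, adjusted p = 0.161) for APP/PS1 and 0.06 (SE 0.10, adjusted p = 0.856) for Sirt3-/-.

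Grm4, a presynaptic receptor of the same inhibitory coupling, had 59.3, 54.8 and 70.1 CPM in APP/PS1/Sirt3-/-, 64.7, 55.2 and 53.1 CPM in APP/PS1 and 70.3, 79.8 and 64.2 CPM in Sirt3-/-, against 53.3, 48.0 and 50.2 CPM in WT. APP/PS1/Sirt3-/- and Sirt3-/- lay above WT, while 1 APP/PS1 library, at 53.1 CPM, lay just under the highest WT library at 53.3 CPM. Fitted log2 fold changes against WT were 0.28 (SE 0.11, adjusted p = 0.164) for APP/PS1/Sirt3-/-, 0.19 (SE 0.11, adjusted p = 0.372) for APP/PS1 and 0.50 (SE 0.11, adjusted p = 0.0717) for Sirt3-/-. Without APP/PS1/Sirt3-/- replicate 4 the value for that group was 0.18. Grm5, the receptor that Homer proteins tether at the synapse and that couples to phospholipase C, ranged from 106 to 188 CPM with all groups overlapping WT. Its log2 fold changes against WT were 0.07 (SE 0.14) in APP/PS1/Sirt3-/-, -0.04 (SE 0.14) in APP/PS1 and 0.39 (SE 0.14) in Sirt3-/-. Grm7 ranged from 33.7 to 44.7 CPM and Grm8 from 10.7 to 15.0 CPM. Grm8 lay above WT in the 3 APP/PS1/Sirt3-/- libraries, by 0.22 (SE 0.12) on the log2 scale, and Grm7 overlapped WT in every group.

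In APP/PS1, 4 of the 6 scaffold genes (Shank1, Shank2, Shank3 and Dlg4) lay below WT without overlap. So did 3 of 7 NMDA and 2 of 4 AMPA receptor subunits, 0 of 5 kainate receptor subunits and 14.6% of all genes. Of the 6 scaffold genes, 1 lay below WT in APP/PS1/Sirt3-/- (12.5% of all genes) and 2 in Sirt3-/- (8.49%). Shank1 (ENSMUSG00000038738, chromosome 7 from 44310253 to 44358351 on the + strand) had 841, 822 and 1175 CPM in APP/PS1/Sirt3-/-, 971, 980.4 and 967 CPM in APP/PS1 and 1089, 692 and 1111 CPM in Sirt3-/-, against 1591, 1286 and 1359 CPM in WT. All 9 libraries outside WT lay below the lowest WT library, with the lowest in Sirt3-/- replicate 2, and the APP/PS1 libraries lay within 967 to 980.4 CPM. On the log2 scale it differed from WT by -0.58 (SE 0.18, adjusted p = 0.110) for APP/PS1/Sirt3-/-, -0.54 (SE 0.18, adjusted p = 0.181) for APP/PS1 and -0.55 (SE 0.18, adjusted p = 0.212) for Sirt3-/-, which is 0.670, 0.689 and 0.683 times the WT level. Without Sirt3-/- replicate 2 the value for Sirt3-/- was -0.36. Shank2 had 235, 244 and 322 CPM in APP/PS1/Sirt3-/-, 243, 251 and 233 CPM in APP/PS1 and 282, 212 and 279.9 CPM in Sirt3-/-, against 404, 311 and 336 CPM in WT. APP/PS1 and Sirt3-/- lay below WT, and in APP/PS1/Sirt3-/- replicate 4 reached the WT range. On the log2 scale it differed from WT by -0.39 (SE 0.14, adjusted p = 0.148) for APP/PS1/Sirt3-/-, -0.53 (SE 0.14, adjusted p = 0.121) for APP/PS1 and -0.44 (SE 0.14, adjusted p = 0.202) for Sirt3-/-. Shank3 ranged from 281 to 478 CPM and lay below WT in APP/PS1, with log2 fold changes of -0.30 (SE 0.12) in APP/PS1/Sirt3-/-, -0.33 (SE 0.12) in APP/PS1 and -0.16 (SE 0.12) in Sirt3-/-.

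**Figure D4:**
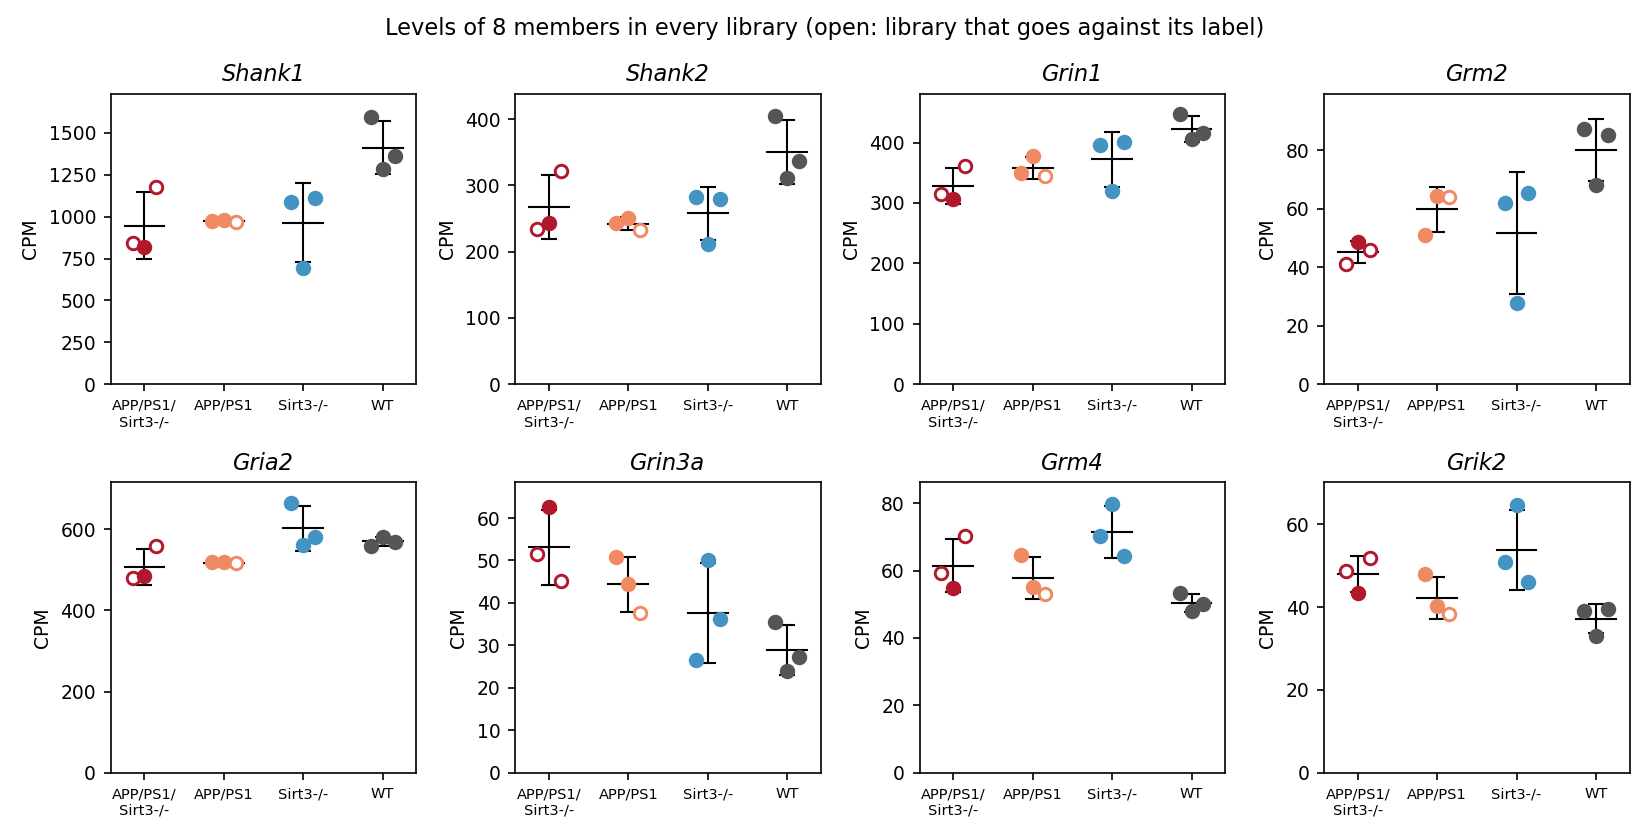
Level in CPM of 8 of the genes in each library, by genotype. Bars are the mean and SD of 3 libraries, and open points are the 3 libraries whose Sirt3 or App reads go against their label. Shank1, Grin1 and Grm2 lie below WT in all 9 other libraries, Gria2 and Grin3a separate from WT in both groups labelled with the transgenes, and Grm4 and Grik2 separate from WT in APP/PS1/Sirt3-/- and Sirt3-/-.

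Dlg4, the scaffold that holds receptors at the postsynaptic density, had 848, 771 and 1079.7 CPM in APP/PS1/Sirt3-/-, 948, 855 and 869 CPM in APP/PS1 and 1118, 918 and 1051 CPM in Sirt3-/-, against 1127, 999 and 1023 CPM in WT. APP/PS1 lay below WT and the other groups overlapped it. On the log2 scale it differed from WT by -0.22 (SE 0.12, adjusted p = 0.302) for APP/PS1/Sirt3-/-, -0.24 (SE 0.12, adjusted p = 0.311) for APP/PS1 and -0.03 (SE 0.12, adjusted p = 0.946) for Sirt3-/-. Homer2, which joins Shank proteins to Grm5, had 64.4, 74.2 and 72.7 CPM in APP/PS1/Sirt3-/-, 66.0, 67.3 and 71.3 CPM in APP/PS1 and 71.6, 57.7 and 67.4 CPM in Sirt3-/-, against 99.2, 81.3 and 70.8 CPM in WT. The WT libraries spread widely, with replicate 4 inside the range of every other group. On the log2 scale it differed from WT by -0.25 (SE 0.11, adjusted p = 0.232) for APP/PS1/Sirt3-/-, -0.30 (SE 0.11, adjusted p = 0.213) for APP/PS1 and -0.35 (SE 0.11, adjusted p = 0.200) for Sirt3-/-. Without WT replicate 1 these were -0.11, -0.16 and -0.22. Grip1, a PDZ scaffold that binds Gria2, ranged from 17.7 to 30.4 CPM with all groups overlapping WT, and its log2 fold changes were 0.13 (SE 0.15) in APP/PS1/Sirt3-/-, 0.11 (SE 0.15) in APP/PS1 and 0.35 (SE 0.14) in Sirt3-/-. The 6 scaffold genes summed to 476 ± 77.5 FPKM in APP/PS1/Sirt3-/-, 476 ± 12.5 FPKM in APP/PS1 and 512 ± 53.9 FPKM in Sirt3-/-, against 587 ± 50.2 FPKM in WT (SD, n = 3 each). The range was 415 to 563 FPKM in APP/PS1/Sirt3-/-, 468 to 490.0 FPKM in APP/PS1 and 450.4 to 549.3 FPKM in Sirt3-/-, against 549.1 to 644 FPKM in WT, so Sirt3-/- met WT at its edge.

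The 2 neuroligins overlapped WT. Nlgn1 ranged from 28.8 to 42.9 CPM, with log2 fold changes against WT of 0.00 (SE 0.11) in APP/PS1/Sirt3-/-, -0.08 (SE 0.11) in APP/PS1 and 0.22 (SE 0.11) in Sirt3-/-. Nlgn3, which is X-linked, ranged from 48.1 to 64.2 CPM, with log2 fold changes of 0.02 (SE 0.09) in APP/PS1/Sirt3-/-, 0.10 (SE 0.09) in APP/PS1 and 0.17 (SE 0.09) in Sirt3-/-, and no group separated from WT in either gene. Of the exonic bases of Nlgn3, 41.2% are shared with Gm21986 on the same strand, and for Nlgn1 the share with another gene was 9.16%.

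Sirt3 deletion within APP/PS1 mice was read from APP/PS1/Sirt3-/- against APP/PS1, a comparison in which 2 of the 3 libraries labelled with the deletion held Sirt3 reads. APP/PS1 replicate 4, on the other side, held App at the WT level. None of the 34 genes passed the test where 0.024% of all genes did, 1 had an unadjusted p under 0.05 (2.94%, against 4.86% of all genes), and DESeq2 also called 0 (0.0429% of all genes). Fits on only these 2 groups called 0 of the 34 with edgeR (0.0123% of all genes) and with DESeq2 (0.192%). The gene with the unadjusted p under 0.05 was Grik4, with a log2 fold change of -0.21 (SE 0.09, adjusted p = 0.974). The log2 fold changes of the 34 genes ran from -0.40 for Grm2 to 0.31 for Grik1, with a median of 0.04 beside 0.01 for all genes. Grm2 was the 1 gene without overlap, below in APP/PS1/Sirt3-/- (6.21% of all genes lay below and 5.7% above). For the NMDA receptor subunit Grin1 the 95% interval of this difference was -0.33 to 0.08, for Gria2 it was -0.20 to 0.15, for Shank1 -0.43 to 0.35 and for Dlg4 -0.23 to 0.26. In the same comparison all 8 hippocampal markers measured were lower, with a median log2 fold change of -1.35 and 5 below APP/PS1 without overlap, and their part in the differences was not tested.

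The transgenes on the Sirt3-/- background were read from APP/PS1/Sirt3-/- against Sirt3-/-. Replicates 1 and 4 of APP/PS1/Sirt3-/- held 28.6 and 27.7 CPM of Sirt3, against 0.186 to 0.467 CPM in Sirt3-/-. The Sirt3 level thus differed along with the transgenes, and their parts in the values below cannot be told apart. None of the 34 passed where 0% of all genes did, 5 had an unadjusted p under 0.05 (14.7%, against 11.4% of all genes), and DESeq2 called 0 of the 34 where it called 0.787% of all genes. On only these 2 groups 0 of the 34 were called by edgeR (0.0186% of all genes) and by DESeq2 (0.367%). Grik1 was above without overlap (6.98% of all genes), as given earlier. Gria2 and Grm3 were below without overlap (6.63% of all genes), with log2 fold changes of -0.25 (SE 0.08, adjusted p = 0.300) and -0.28 (SE 0.10, adjusted p = 0.325), the value of Grm3 being -0.16 without Sirt3-/- replicate 1. The median over the 34 was -0.11, beside -0.0050 for all genes, and with Sirt3-/- replicate 2 left out edgeR called 1 gene, Grik1, and 1.7% of all genes.

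The interaction asked whether Sirt3 deletion changed a gene by a different amount with the transgenes than without them, as the log2 difference APP/PS1/Sirt3-/- against APP/PS1 minus Sirt3-/- against WT. The libraries that went against their labels all entered it. APP/PS1/Sirt3-/- replicates 1 and 4 held Sirt3 reads, and APP/PS1 replicate 4 held App at the WT level. The values below therefore do not isolate the deletion with and without the transgenes. None of the 34 passed where 0% of all genes did, 5 had an unadjusted p under 0.05 (14.7%, against 6.48% of all genes), and DESeq2 called 0 (0.0721% of all genes). The 5 were Grin3b with -1.83 (SE 0.52, adjusted p = 0.745), Shank2 with 0.58 (SE 0.20, adjusted p = 0.745), Grm4 with -0.41 (SE 0.15, adjusted p = 0.745), Grik1 with 0.58 (SE 0.23, adjusted p = 0.745) and Homer2 with 0.40 (SE 0.16, adjusted p = 0.745), the value of Homer2 being 0.26 without WT replicate 1. All 5 adjusted values are equal because the Benjamini-Hochberg step gives neighbouring genes the same value. Of the 5, Grin3b passed the filter on low counts only through the groups other than WT, so its value is no evidence of a change.

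The region markers moved with several of these genes. All 10 cortical excitatory markers were lower in each of the 3 groups than in WT by mean level, and 10, 8 and 4 of them lay below WT without overlap in APP/PS1/Sirt3-/-, APP/PS1 and Sirt3-/-. Sirt3-/- replicate 2 had the lowest cortical sum, 1208 CPM, and the lowest Shank1, Shank2 and Grm2 of the 12 libraries. The 8 hippocampal markers summed to 37.4 to 83.2 CPM in APP/PS1/Sirt3-/-, 84.4 to 149 CPM in APP/PS1 and 36.9 to 59.3 CPM in Sirt3-/-, against 37.6 to 84.3 CPM in WT, with none at 0. In APP/PS1 all 8 were higher than in WT, with a median log2 fold change of 1.23, and 3 lay above WT without overlap. With the mean log2 level of the cortical markers as a covariate in the edgeR fit, the log2 fold change of Shank1 was -0.09 (SE 0.14) in APP/PS1/Sirt3-/-, -0.22 (SE 0.12) in APP/PS1 and -0.22 (SE 0.12) in Sirt3-/-, each smaller than without it. Grm2 then differed from WT by 0.00453 (SE 0.14) in APP/PS1/Sirt3-/- and -0.13 (SE 0.12) in Sirt3-/-, and Grin1 by -0.13 (SE 0.10) in APP/PS1/Sirt3-/-. Grin3b hardly moved, with 1.53 (SE 0.53), 1.55 (SE 0.47) and 1.81 (SE 0.48) in the 3 groups. It passed the filter on low counts only through the groups other than WT, so these values are no evidence of a change.

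Grin3a was set beside the thalamic sum, whose 9 markers all lay above WT without overlap in APP/PS1. Grm4 and Grik2 were set beside the striatal sum, whose 10 measured markers all lay above WT without overlap in Sirt3-/-. The highest Grin3a and thalamic sum fell in APP/PS1/Sirt3-/- replicate 2, and the highest Grm4, Grik2 and striatal sum in Sirt3-/- replicate 2. Other libraries broke the pairing. In APP/PS1, Grin3a fell (50.8, 44.5 and 37.7 CPM) as the thalamic sum rose (257, 276 and 361 CPM). APP/PS1/Sirt3-/- replicate 2 had the lowest striatal sum, 302 CPM, with Grm4 (54.8 CPM) and Grik2 (43.3 CPM) above WT. With striatal, thalamic and choroid plexus markers as 3 covariates, the log2 fold change of Grin3a was 0.28 (SE 0.47) in APP/PS1/Sirt3-/- and 0.02 (SE 0.44) in APP/PS1, that of Grik2 was 0.11 (SE 0.17) in Sirt3-/-, and that of Grm4 was 0.26 (SE 0.14) in Sirt3-/-. Grin3b was then 0.89 (SE 0.72) in APP/PS1/Sirt3-/-, 1.13 (SE 0.68) in APP/PS1 and 1.09 (SE 0.73) in Sirt3-/-. Among the 12 genes with the smallest p and the 6 core subunits, 26 differences from WT had an unadjusted p under 0.05. They were picked by p in these same data and include those of Grin3b. With the cortical covariate 26 were smaller, 15 of them to less than 50% of their size without it. With the 3 region covariates 24 were smaller, 15 to less than 50%. The 2 that grew with the region covariates were those of Grin2a. They became -1.32 (SE 0.58) from -0.87 in APP/PS1 and -1.46 (SE 0.62) from -0.80 in APP/PS1/Sirt3-/-. The share of all genes that shrank was not measured. With sex read from the Y-linked genes as a covariate, 12 of the 26 were smaller and none fell under 50%. None of the 34 genes passed with any of these covariates. Of all genes, 0% to 0.078% passed over the comparisons with the cortical covariate, 0% to 0.048% with the 3 region covariates and 0% to 1.16% with sex. Since the marker levels differ between the genotypes, the part of each in these differences cannot be told apart.

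**Figure D5:**
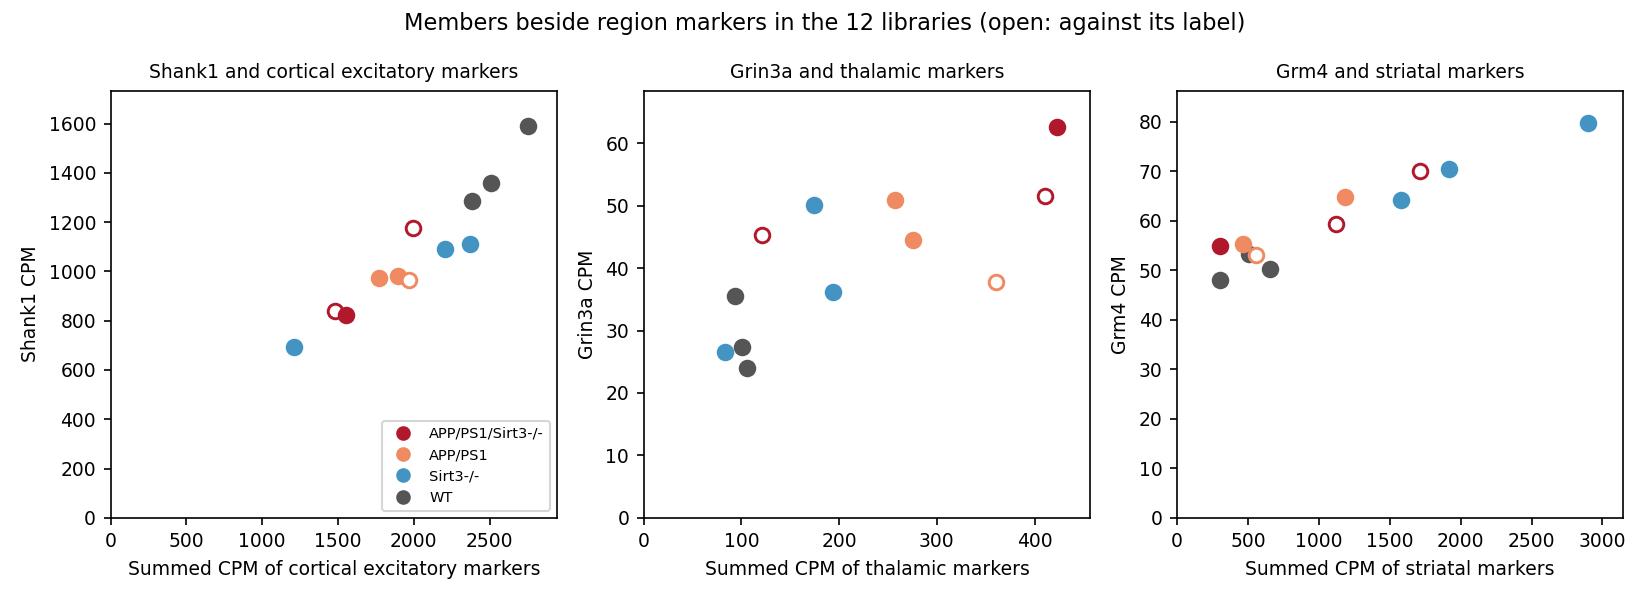
Level in CPM of Shank1 (left), Grin3a (middle) and Grm4 (right) against the summed CPM of cortical excitatory, thalamic and striatal markers in the 12 libraries, coloured by genotype. Open points are the 3 libraries whose Sirt3 or App reads go against their label. WT libraries lie at the upper right for Shank1, and Sirt3-/- replicate 2 is the lowest point there and the highest for Grm4.

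Leaving out the 4 libraries with Y-linked reads left 0 of the 34 genes called in every comparison, where 0% to 0.4% of all genes were called. Leaving out the 3 libraries that went against their labels keeps 2 APP/PS1 libraries and 1 APP/PS1/Sirt3-/- library, replicate 2, which the fit assumes to vary like the other groups, so its calls for that group say nothing of stability. In that fit 0 of the 34 were called in Sirt3-/- against WT and in APP/PS1 against WT, where 0.402% and 0.143% of all genes were. Leaving out only the 2 APP/PS1/Sirt3-/- libraries with Sirt3 reads left Grm4 called in Sirt3-/- against WT (higher, 0.593% of all genes) and, with the same 1 library, Shank3 called in APP/PS1/Sirt3-/- against WT (lower, 1.11%).

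Of the 34 genes, 8 lie on chromosome 7 with Sirt3 (140863670 to 140882309), and the strain of the DNA around the deletion was not analysed here. Shank2 is 3.12 Mb from Sirt3 and Cacng3 18.09 Mb, and the others, Grm5, Homer2, Grin2d, Shank1, Grik5 and Cacng8, are 52.73 to 137.45 Mb away. For Shank2, the nearest, the log2 fold change against WT was -0.53 (SE 0.14) in APP/PS1 and -0.44 (SE 0.14) in Sirt3-/-. The part of its position in these differences was not tested.

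A list of 45 further genes of the glutamate synapse (other receptors, auxiliary subunits, scaffolds, adhesion proteins, transporters and enzymes of glutamate) had 44 genes tested. In APP/PS1/Sirt3-/- against WT 3 of them rose and 1 fell, where 1.13% of all genes passed, in Sirt3-/- against WT 2 rose, where 0.294% did, and in the other 4 comparisons none passed. In those 4 an unadjusted p under 0.05 was found for 17 of the 44 in APP/PS1 against WT (38.6%, against 17% of all genes), 2 in APP/PS1/Sirt3-/- against APP/PS1 (4.55%, against 4.86%), 7 in APP/PS1/Sirt3-/- against Sirt3-/- (15.9%, against 11.4%) and 3 in the interaction (6.82%, against 6.48%). Cacng4, an auxiliary subunit of AMPA receptors like the 3 described above, had 68.3, 48.8 and 74.8 CPM in APP/PS1/Sirt3-/-, 64.2, 43.4 and 47.0 CPM in APP/PS1 and 65.8, 86.1 and 69.9 CPM in Sirt3-/-, against 33.7, 29.2 and 33.5 CPM in WT. All 9 libraries outside WT lay above it. It rose in APP/PS1/Sirt3-/- by 0.99 (SE 0.18, adjusted p = 0.0375) and in Sirt3-/- by 1.20 (SE 0.18, adjusted p = 0.0259) on the log2 scale, and the value for APP/PS1 was 0.68 (SE 0.18, adjusted p = 0.133). Neto2, an auxiliary subunit of kainate receptors, had 47.5, 40.7 and 49.6 CPM in APP/PS1/Sirt3-/-, 47.2, 37.2 and 39.0 CPM in APP/PS1 and 62.0, 56.5 and 56.0 CPM in Sirt3-/-, against 39.9, 36.0 and 39.6 CPM in WT. It rose in Sirt3-/- by 0.60 (SE 0.10, adjusted p = 0.0259), where no library overlapped WT, and the values for APP/PS1/Sirt3-/- and APP/PS1 were 0.25 (SE 0.10, adjusted p = 0.176) and 0.10 (SE 0.10, adjusted p = 0.656).

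Kalrn, a guanine nucleotide exchange factor that shapes dendritic spines, had 412, 418 and 481 CPM in APP/PS1/Sirt3-/-, 462, 495 and 523 CPM in APP/PS1 and 679, 438 and 682 CPM in Sirt3-/-, against 724, 786 and 777 CPM in WT. All 9 libraries lay below WT. It fell by 0.80 (SE 0.14, adjusted p = 0.0317) on the log2 scale in APP/PS1/Sirt3-/-, and the values were -0.63 (SE 0.14, adjusted p = 0.0841) for APP/PS1 and -0.35 (SE 0.14, adjusted p = 0.293) for Sirt3-/-. The list overlaps the marker lists in Slc17a6, Slc17a7 and Slc1a3.

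These calls did not hold under every fit. With the cortical covariate Cacng4 was 1.02 (SE 0.21, adjusted p = 0.222) in Sirt3-/- and Kalrn -0.35 (SE 0.08, adjusted p = 0.326) in APP/PS1/Sirt3-/-, and with the 3 region covariates Cacng4 was 0.44 (SE 0.14, adjusted p = 0.929) and Neto2 0.36 (SE 0.15, adjusted p = 0.929) in Sirt3-/-, and none of the 6 calls passed with either. Without the 3 libraries that went against their labels Cacng4 and Neto2 passed in Sirt3-/-, while APP/PS1/Sirt3-/- kept 1 library, and that none of its 4 calls passed there says nothing of stability. Without the 4 libraries with Y-linked reads none of the 6 passed. With 1 library left out in turn the calls in the list numbered 0 to 2 in Sirt3-/-, where 0.0118% to 0.683% of all genes were called. In APP/PS1/Sirt3-/- they numbered 0 to 9, where 0.0117% to 6.91% were. The 9 came both without Sirt3-/- replicate 2 (6.91% of all genes) and without APP/PS1/Sirt3-/- replicate 4 (4.77%). DESeq2 on the 12 libraries called 3 in Sirt3-/- (2.6% of all genes), 4 in APP/PS1 (3.19%) and 9 in APP/PS1/Sirt3-/- (6.31%) against WT. It called 0 in the other 3 comparisons, where it called 0.0429% to 0.787% of all genes. On only the 2 groups compared edgeR called 13 (6.81% of all genes) and DESeq2 16 (8.03%) in APP/PS1 against WT.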

How the data were processed

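RNA of mouse cortex was sequenced in 12 libraries, and, after trimming of adaptors and poor bases, the authors mapped the reads to the mouse genome GRCm38 (mm10) by TopHat. The deposited table holds raw read counts per gene, the authors' FPKM values per library and gene lengths. Which counter and annotation were used, and whether strand was, the sources do not say. Columns of normalized means, log2 fold changes, p-values and calls from the authors' DESeq2 comparisons were not used.

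The 34 genes and all gene lists were chosen with earlier results of these data known. Counts were filtered (filterByExpr), scaled by TMM and fitted with edgeR 4.0.16 (quasi-likelihood test, R 4.3.3) as 4 group means over 12 libraries, 3 a group, and p-values were adjusted by Benjamini-Hochberg over all 16673 genes tested, with a threshold of 0.05. The 95% intervals use the t quantile at the fit's degrees of freedom. CPM used TMM-scaled library sizes, and FPKM served to compare levels between genes. Shares of FPKM were compared by exact two-sided permutation tests. DESeq2 1.42.0, other filters and scaling, covariates and omitted libraries were alternatives, and the code was tested on simulated data. The marker covariate for cortical neurons and the fit without Y-linked libraries were added after seeing the data. Values per library are given for the 12 genes with the smallest p in any comparison and for 6 core subunits, with other genes added where a result rests on them. Exon overlaps come from GENCODE vM21. Some genes of the wider glutamate synapse list are counted but not reported here. The replicate numbers were not treated as a pairing, which the labels do not state. Deviations of same-numbered libraries correlated at -0.11 to 0.23 over 18 pairs, 9 of them over 0.1. No correlations of differently numbered libraries were set beside these, so they do not settle whether libraries were paired. The number does go with 1 shared factor, since replicate 4 held Y-linked reads in every group.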

Additional observations from a re-analysis of the deposited data

How the results depend on the processing

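Depth was lowest for Grin3b, at 3 to 28 reads a library. Fits without the 2 APP/PS1/Sirt3-/- libraries with Sirt3 reads, or without all 3 libraries against their label, keep 1 library of that group, and their values for it say nothing of stability. The counts of the 34 genes called moved with the fit, as did the shares of all genes called. With no filter on low counts that share was 0.338% in Sirt3-/- against WT. In Sirt3-/- against WT, 0 became 4 with DESeq2 on 12 libraries, 1 with no filter on low counts, 1 and 3 with edgeR and DESeq2 on the 2 groups compared, and 1 without the 2 APP/PS1/Sirt3-/- libraries with Sirt3 reads. In APP/PS1 against WT, 0 became 1 with DESeq2 on 12 libraries, and 7 and 11 on the 2 groups compared. In APP/PS1/Sirt3-/- against WT, 0 became 5 with DESeq2 on 12 libraries, 3 and 5 on the 2 groups compared, and 1 without the 2 libraries with Sirt3 reads. With each library left out in turn the counts were 0 to 1 in Sirt3-/- against WT, 0 to 3 in APP/PS1 against WT, 0 to 6 in APP/PS1/Sirt3-/- against WT, 0 to 1 in APP/PS1/Sirt3-/- against Sirt3-/- and 0 in the other 2 comparisons.

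The median log2 fold change of the 34 genes moved by more than the SD of their median level (0.0518) as follows. With the cortical covariate it was 0.0528 in Sirt3-/- against WT and -0.0340 in APP/PS1/Sirt3-/- against Sirt3-/-. With the 3 region covariates it was -0.00434 in APP/PS1 against WT, 0.0226 in APP/PS1/Sirt3-/- against Sirt3-/- and -0.0394 in the interaction. Without the 2 APP/PS1/Sirt3-/- libraries with Sirt3 reads, without all 3 libraries against their label and without the 4 libraries with Y-linked reads it was -0.104, -0.105 and -0.105 in APP/PS1/Sirt3-/- against WT, and -0.0318, -0.0467 and -0.0409 in APP/PS1/Sirt3-/- against APP/PS1. With each library left out it ran from -0.0792 to 0.0400 in Sirt3-/- against WT, -0.129 to -0.0178 in APP/PS1 against WT, -0.114 to 0.0215 in APP/PS1/Sirt3-/- against WT, -0.0176 to 0.101 in APP/PS1/Sirt3-/- against APP/PS1, -0.188 to -0.0609 in APP/PS1/Sirt3-/- against Sirt3-/- and -0.0167 to 0.0819 in the interaction. The cause was not tested.

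In APP/PS1/Sirt3-/- against WT, Homer2 and Grm3 turned to 0.0165 and 0.0283 with the 3 region covariates and Grm2 to 0.00453 with the cortical covariate. Over 34 results of single genes and 870 alternative values, 817 kept their direction and stayed short of the threshold, 50 passed it and 3 changed sign. The fit without APP/PS1 replicate 4 enters these counts again as the fit without the APP/PS1 library with App at the WT level. Fits that keep 1 APP/PS1/Sirt3-/- library are also among them, so the 870 values are not independent alternatives. Differences in the shares of Gria2 and Grin2a moved by less than 1 pooled SD within groups in the alternatives run, and some changed sign where the difference was small. All of these alternatives kept the deposited gene lengths. With the replicate number as a block, which the labels do not state to be a pairing, 0 of the 34 genes passed in any comparison. Over all genes 18, 0, 115, 4, 10 and 0 passed in the comparisons with WT of Sirt3-/-, APP/PS1 and APP/PS1/Sirt3-/-, in those of APP/PS1/Sirt3-/- with APP/PS1 and with Sirt3-/-, and in the interaction. Over the autosomes the correlation of same-numbered libraries was over 0.1 in 6 of 18 pairs.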
